A study of Mus musculus with 90 samples.

Results

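The 10 genes described here encode the switch that takes a cell from growth into DNA synthesis: 5 inhibitors of cyclin-dependent kinases (CDKs), Cdkn1a, Cdkn1b, Cdkn1c, Cdkn2c and Cdkn2d, the 3 D-type cyclins Ccnd1, Ccnd2 and Ccnd3, and their kinases Cdk4 and Cdk6. They were chosen by symbol, and all 10 were among the 35869 genes of the table. The study took blood stem cells that carry CD41, a platelet integrin subunit, from mouse bone marrow and asked how loss of RUNX1, a transcription factor of blood development, changes what they become. After 2 days in culture, cells with the look of megakaryocytes (MK), from which platelets form, and cells without it (NMK) were picked one by one, and the full-length SMART-Seq method made a library from each. The 4 groups were 5 knockout (KO) MK, 6 wild-type (WT) MK, 13 KO NMK and 9 WT NMK.

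All mice had both copies of Runx1 flanked by loxP sites (RUNX1f/f), and all received 4 poly(I:C) injections, 4 weeks before the cells were taken. The KO mice carried the Cre transgene (MxCre1+/-), which poly(I:C) switches on in blood and in other tissues that respond to interferon, and the WT mice did not (MxCre1-/-). No label names an animal or culture, so each group counts as 1 sample, no test was run and no p-value is given. Errors are standard deviations (SD) between cells.

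D-type cyclins are made when growth factors act on a cell, and they bind CDK4 or CDK6. The active pairs phosphorylate the retinoblastoma protein and its relatives, which then release E2F factors, and E2F factors switch on genes of DNA replication. The INK4 inhibitors (Cdkn2c encodes p18, Cdkn2d encodes p19) bind CDK4 and CDK6 and keep cyclins off them. The CIP/KIP inhibitors (Cdkn1a encodes p21, Cdkn1b p27, Cdkn1c p57) bind whole cyclin-CDK complexes and block CDK2 above all. In the megakaryocyte lineage D-type cyclins have a further place, since maturing megakaryocytes copy their DNA repeatedly without dividing. In stem cells p57 and p27 are known for their part in quiescence, and p21 is a classic target of p53.

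The 3 D-type cyclins are close relatives, so their coding sequences are shown to let the reader see how far their reads can be told apart. The best conserved stretch of 60 coding bases was the same in 46 positions in all 3 genes. It is printed from the coding strand with the 14 differing positions in capitals, from base 186 of the coding sequence of Ccnd1 (chromosome 7) and Ccnd3 (chromosome 17) and from base 180 of that of Ccnd2 (chromosome 6).
Ccnd1: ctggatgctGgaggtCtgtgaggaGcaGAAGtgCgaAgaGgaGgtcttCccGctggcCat
Ccnd2: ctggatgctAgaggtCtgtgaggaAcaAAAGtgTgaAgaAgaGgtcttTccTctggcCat
Ccnd3: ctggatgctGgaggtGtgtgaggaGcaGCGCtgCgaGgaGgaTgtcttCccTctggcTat
Over the whole coding sequence 67.1% of aligned bases were identical between Ccnd1 and Ccnd2, 61.4% between Ccnd1 and Ccnd3 and 66.5% between Ccnd2 and Ccnd3. Cdk4 and Cdk6 were 67.3% identical, and no stretch of 50 bases was shared by any pair of the 10 genes.

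On GRCm38 with GENCODE M21 genes, the inhibitors lie at chr17:29090976-29100727 (Cdkn1a, plus strand), chr6:134920401-134925513 (Cdkn1b, plus), chr7:143458339-143461050 (Cdkn1c, minus), chr4:109660876-109667189 (Cdkn2c, minus) and chr9:21288410-21291407 (Cdkn2d, minus). The cyclins lie at chr7:144929931-144939925 (Ccnd1, minus), chr6:127125162-127152193 (Ccnd2, minus) and chr17:47505051-47599691 (Ccnd3, plus), and the kinases at chr10:127063534-127067920 (Cdk4, plus) and chr5:3341485-3531008 (Cdk6, plus). Several of the genes overlap a gene on the opposite strand, and the strand setting of the counting is not given in the sources used here, so reads of both cannot be told apart there. Of the 50-base stretches of the main transcript, 29.5% of those of Cdk4 also lay in Tspan31, 27.2% of those of Ccnd1 in the gene listed as Oraov1, 26.8% of those of Cdkn1c in Gm44732, 14.7% of those of Ccnd3 in Bysl and 10.5% of those of Cdkn1a in AC167363.2. Values of Tspan31, Oraov1 and Bysl are given beside the results they touch.

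Promoter windows of 250 bases before to 50 after the start site, from RefSeq on GRCm38.p6, were at hand for 7 of the 10 genes, in 10 windows; Cdkn1c, Ccnd1 and Ccnd2 had none. They were searched on both strands for the RUNX core as TGTGGT or TGCGGT, the E-box CACGTG, and the E2F motifs TTTCGCGC, TTTGGCGC and TTTCCCGC. TGTGGT was in the window of Cdk4, on the minus strand, and in 16.8% of the 32851 windows of the table, and TGCGGT was in that of Ccnd3 and in 6.45% of all windows. The E-box was in the windows of Cdk4, Cdk6 and Cdkn2c and in 7.15% of all windows, and no window of the 10 genes held one of the E2F motifs, which 1.84% of all windows held. The windows of Cdk4 and Ccnd3 are shown because they held the RUNX core and because both genes come up in the comparison of KO with WT cells. Matches are in capitals, ACCACA being the RUNX core read on the other strand.
Cdk4, 200 bases before the start site, chr10:127063335-127063534, plus strand: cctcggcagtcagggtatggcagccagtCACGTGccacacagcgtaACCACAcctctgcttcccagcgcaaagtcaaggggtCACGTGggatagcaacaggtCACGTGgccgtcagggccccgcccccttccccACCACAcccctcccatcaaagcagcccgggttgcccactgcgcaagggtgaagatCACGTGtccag
Ccnd3, bases 16 to 45 after the start site, chr17:47505066-47505095, plus strand: cagctcgagttcTGCGGTgcagcgcggact
A match is a string of letters, and these data hold no measure of what binds there.

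Values are TPM, transcripts per 1000000, which are scaled to a fixed total in each library and to gene length, so that genes can be compared within a cell but the read depth cannot be known. Genes above 0 numbered 11896 to 14487 in KO MK, 14089 to 15252 in WT MK, 3011 to 10987 in KO NMK and 5475 to 11715 in WT NMK cells. KO NMK B1-1b and B1-2a stood apart: the mean log2(TPM + 1) of 14 housekeeping genes was 4.58 and 3.01 in them and 8.47 or more in the other 31 cells, and in B1-1b 91.6% of the TPM lay on mitochondrial genes. Most differences that use KO NMK cells are given with all cells and without these 2. KO MK B1-4 and KO MK 2 went against their label: the mean log2(TPM + 1) of 20 megakaryocyte-platelet genes was 1.87 and 2.23, against 4.30 or more in every WT MK cell, and the highest NMK cell had 2.84. Some KO MK values are also given without them. The 5 WT MK libraries whose titles lack the prefix B1 correlated with each other at r = 0.966 to 0.980 across genes, and with WT MK B1-1 at 0.903 to 0.922, while pairs of KO MK cells lay between 0.730 and 0.922. Whether those 5 are separate cells cannot be told from TPM, and the SD of WT MK cells may be too small. Runx1 averaged 22.5 TPM in KO MK, 12.4 TPM in WT MK, 12.1 TPM in KO NMK and 5.08 TPM in WT NMK cells, but a value per gene cannot be split by exon, so it checks no label.

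Counts over the 10 genes are set beside the same counts over all genes. A gene was counted as higher or lower where the mean log2(TPM + 1) of the groups differed by 1 or more, provided that 1 of the 2 groups averaged at least 1 TPM. In KO MK against WT MK cells Ccnd3 was higher and Cdkn1b and Cdk6 were lower, 3 of the 9 genes compared (Cdkn1c was under the minimum), against 21.7% of all 11799 genes (12.4% higher, 9.27% lower). In KO NMK against WT NMK cells Cdkn1a, Cdkn2c, Cdkn2d and Ccnd3 were higher and Ccnd2 was lower, 5 of 10, against 26.1% of 12840 genes (12.8% higher, 13.3% lower). Without KO NMK B1-1b and B1-2a the same 4 genes were higher, Ccnd2 at -0.86 no longer counted, and 31.7% of 11735 genes did (24.1% higher, 7.62% lower). In WT MK against WT NMK cells Cdkn1a, Cdkn2c, Cdkn2d, Ccnd3 and Cdk6 were higher and none was lower, 5 of 10, against 42.6% of 11565 genes (37.4% higher, 5.22% lower). In KO MK against KO NMK cells Cdkn1a, Cdkn2d, Ccnd2 and Ccnd3 were higher, 4 of 10, against 38% of 13372 genes (34.2% higher, 3.84% lower). Without the 2 KO NMK libraries this became Ccnd2 higher and Cdk4 lower, against 32.9% of 12228 genes (26% higher, 6.97% lower).

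Without KO MK B1-4 and 2, a choice made after the data were seen, Cdkn2d and Ccnd3 were higher and Cdkn1a, Cdkn1b and Cdk6 lower in KO MK than in WT MK cells, 5 of 9, against 25.7% of 11347 genes (16.1% higher, 9.58% lower). With the same cells left out, Cdkn2d, Ccnd2 and Ccnd3 were higher and Cdkn1a, Cdkn2c and Cdk4 lower in KO MK against KO NMK cells, 6 of 10, against 41.1% of 12069 genes (31.6% higher, 9.5% lower).

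Groups without any overlap of cells were rarer. Between KO MK and WT MK cells none of the 9 genes was free of overlap, against 2.38% of all genes on the higher and 1.85% on the lower side. Without KO MK B1-4 and 2 these were Cdkn2d and Ccnd3 on the higher side, against 12.6% of all genes, and Cdk4 and Cdk6 on the lower side, against 5.25%. Between KO NMK and WT NMK cells none of the 10 was, against 0% and 0.0545% of all genes on the higher and the lower side, or 0.136% and 0.0682% without the low libraries. Between WT MK and WT NMK cells Ccnd3 alone was, on the higher side, against 4.58% and 0.527% of all genes. Between KO MK and KO NMK cells none was, against 0.307% and 0.015% of all genes, or 0.376% and 0.221% without the low libraries and 5.01% and 1.15% without KO MK B1-4 and 2 as well.

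The median of all genes was itself off 0, at 0.09 for KO MK minus WT MK, 0.20 for KO NMK minus WT NMK (0.36 without the 2 low libraries), 0.70 for WT MK minus WT NMK and 0.59 for KO MK minus KO NMK (0.36 without them). Differences below are as measured, and these shifts should be taken off to read them relative to the typical gene. The comparisons share groups, so they are not independent of each other.

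**Figure D1:**
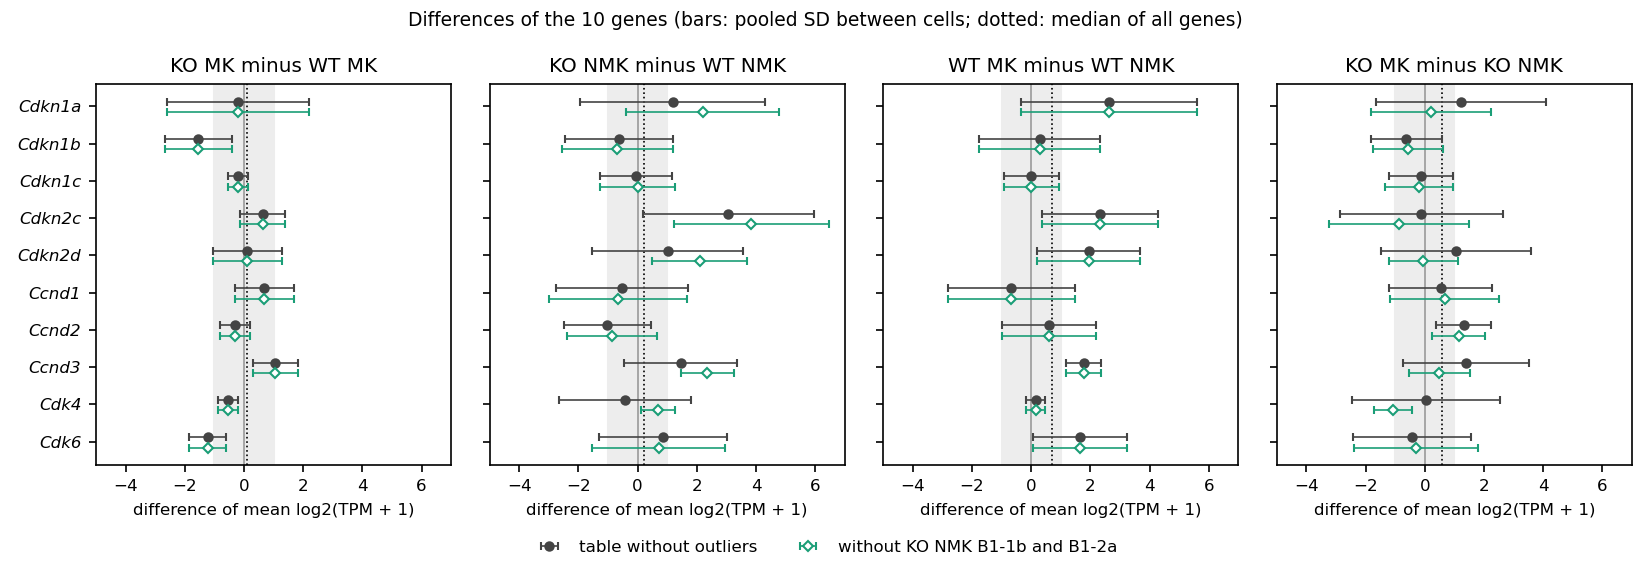
Difference of mean log2(TPM + 1) (x axis) of each of the 10 genes (rows) in the 4 comparisons. Black circles use all cells of the table without outliers and open diamonds leave out KO NMK B1-1b and B1-2a; bars are the pooled SD between cells, the grey band spans -1 to 1 and the dotted line is the median of all genes. Ccnd3 lies right of the band in all 4 comparisons with all cells (1.06, 1.45, 1.77 and 1.39).

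Among the D-type cyclins, Ccnd3 had the largest mean share of the transcripts in KO MK and KO NMK cells, and Ccnd2 had it in WT MK and WT NMK cells. Ccnd3, the cyclin that prevails in many blood lineages, was at 93.7, 164.2, 23.2, 126.3 and 65.1 TPM in KO MK 1A, 1B, 2, B1-3 and B1-4, against a lowest value of 28.4, a median of 35.4 and a highest value of 52.5 TPM in WT MK cells. So 4 of 5 KO MK cells lay above every WT MK cell, and KO MK 2, one of those with few platelet transcripts, lay below all of them. The difference was 1.06 with an SD of 0.76. It was 1.02 among cells without a title prefix, 0.78 among B1 cells and 0.86 with the 5 similar WT MK libraries taken as 1. With all libraries of the full table, among them those the authors left out, it was 1.61. Leaving housekeeping scores under 6 out of that table gave 0.44. That setting still held KO MK B1-1, with a score of 6.61, 71.5% of the TPM on mitochondrial genes and 6.4 TPM of Ccnd3. KO MK 1, a library left out by the authors, had 40.3 TPM, within the WT MK range. Without KO MK B1-4 and 2 the 3 remaining cells averaged 128.1 TPM ± 35.3 (SD, n = 3), against 37.9 TPM ± 8.86 in WT MK cells (SD, n = 6), with no overlap.

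In KO NMK cells the lowest, median and highest values of Ccnd3 were 0, 46.3 and 110.4 TPM, against 3.6, 11.9 and 24.4 TPM in WT NMK cells. Of 13 KO NMK cells 10 lay above every WT NMK cell, KO NMK 1 with 9.1 TPM lay among them, and the 2 low libraries were listed at 0. The difference was 1.45 (SD 1.89) with all cells and 2.35 (SD 0.89) without the 2 low libraries, where the means were 66.2 TPM ± 33.8 for 11 KO NMK cells and 11.4 TPM ± 5.99 for 9 WT NMK cells (SD). Among cells without a title prefix, the only ones with both genotypes, it was 2.16.

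All 6 WT MK cells also had more Ccnd3 than any WT NMK cell, with a difference of 1.77 (SD 0.60) and with no overlap. When all libraries of the full table were used, among them those the authors left out, this difference was -0.12, and it was 1.77 again when those with a housekeeping score under 6 were left out of that table. KO MK minus KO NMK gave 1.39 (SD 2.13), and 0.49 (SD 1.03) without the 2 low libraries.

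Bysl, which overlaps Ccnd3 on the other strand, averaged 100.6 TPM in KO MK, 66.3 TPM in WT MK, 60.4 TPM in KO NMK and 18.8 TPM in WT NMK cells, the same order as Ccnd3 in all but the middle groups. Bysl and Ccnd3 varied together within groups, with r = 0.80 and rho = 0.66 over 31 cells, and r = 0.63 without KO MK 2 and KO NMK 1. How much the shared stretch adds to Ccnd3 was not tested.

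Ccnd2, which in blood progenitors is known to follow cytokine signals, was at 33.9, 88.9, 42.1, 38.4 and 29.3 TPM in KO MK 1A, 1B, 2, B1-3 and B1-4. In WT MK cells its lowest, median and highest values were 35.6, 53 and 79.8 TPM, so the groups overlapped, and the difference was -0.30 (SD 0.52). In KO NMK cells it was at 3.8, 16.4 and 63.4 TPM, against 0.2, 52.8 and 164.6 TPM in WT NMK cells. The difference was -1.02 (SD 1.48), or -0.86 (SD 1.51) without the low libraries, smaller than the spread both times, and WT NMK 1A, at 0.2 TPM, stood far below the next WT NMK cell. KO MK cells had more Ccnd2 than KO NMK cells, by 1.31 (SD 0.92) and by 1.15 (SD 0.89) without the 2 low libraries.

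Ccnd1, the cyclin most tied to adhesion and growth factor signals in other tissues, was at 20.8, 62.0, 20.3, 4.9 and 25.4 TPM in KO MK 1A, 1B, 2, B1-3 and B1-4, against 4.4, 13.9 and 25.3 TPM as lowest, median and highest in WT MK cells. The difference was 0.69 (SD 1.0). In NMK cells the lowest, median and highest values were 0, 21.3 and 64.0 TPM for KO, against 0, 36.6 and 208.6 TPM for WT, a difference of -0.53 (SD 2.23), or -0.66 (SD 2.33) without the low libraries. WT MK minus WT NMK was -0.68 (SD 2.14), and KO MK minus KO NMK was 0.54 (SD 1.74), or 0.67 (SD 1.83) without the low libraries. All of these were smaller than their SD. Oraov1, its overlapping neighbour, was the gene whose variation within groups was most like that of Ccnd1, with r = 0.87 and rho = 0.87 over 31 cells and r = 0.80 without WT NMK 1A and 3A. What part of Ccnd1 comes from shared reads was not tested.

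**Figure D2:**
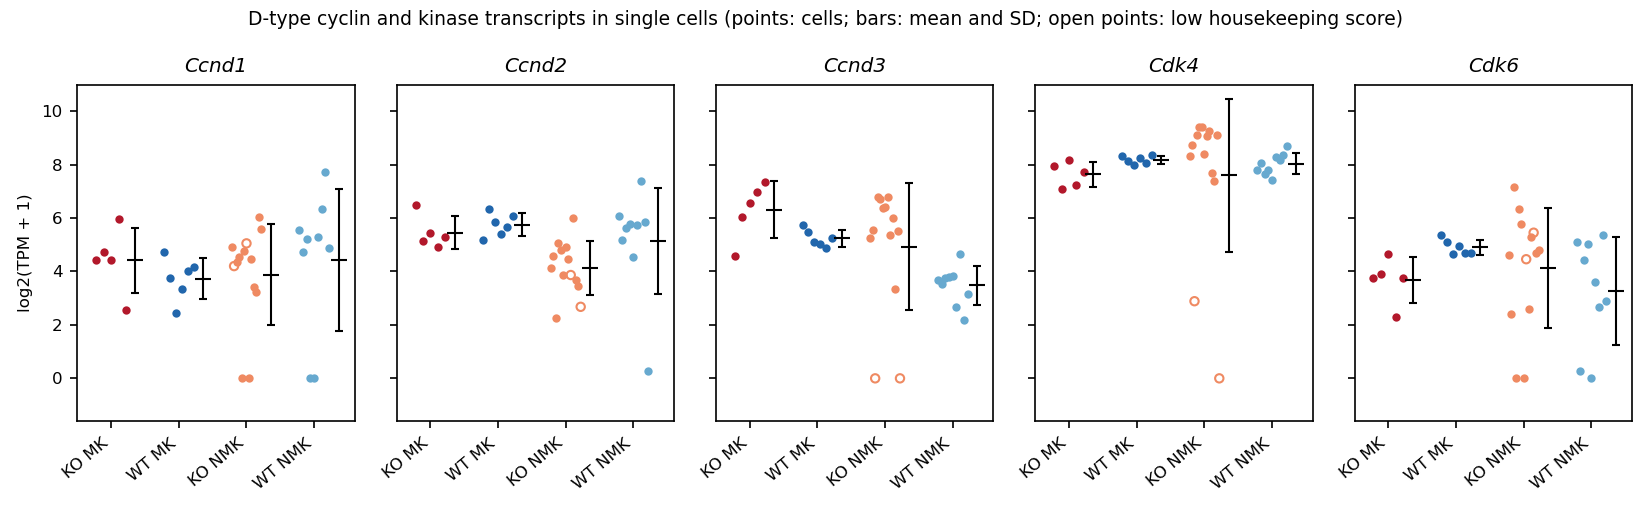
Level of the 3 D-type cyclins and their 2 kinases as log2(TPM + 1) (y axis) in each cell of the 4 groups (x axis). Points are cells, open points are the 2 KO NMK libraries of low housekeeping score, and black bars are the mean and SD; Ccnd3 sits at 3.6 to 24.4 TPM in WT NMK cells, and at 28.4 to 52.5 TPM in WT MK cells.

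Shares within a cell do not depend on the library total, so the make-up of the D-type cyclins was taken as the percent of their summed TPM, in cells with a sum of 10 TPM or more. Ccnd3 made up 63.1, 52.1, 27.1, 74.5 and 54.3% in KO MK 1A, 1B, 2, B1-3 and B1-4, a mean of 54.2% ± 17.5 (SD, n = 5), against 36.8% ± 12.7 in WT MK cells (SD, n = 6). The 2 groups overlapped: 2 of 5 KO MK cells lay above the highest WT MK cell, B1-1, with 56.8%. In KO NMK cells Ccnd3 made up 49.0% ± 28.6 (SD, n = 13), or 57.9% ± 20.4 without the 2 low libraries (SD, n = 11), against 13.2% ± 9.63 in WT NMK cells (SD, n = 8, as WT NMK 1A had a cyclin sum of 3.8 TPM). Of the 11 KO NMK cells 9 lay above the highest of those 8 WT NMK cells, and the exceptions were KO NMK 5B with 30.02% and KO NMK 1 with 14.7%. In WT NMK 1A, left out, Ccnd3 gave 3.6 TPM of the sum of 3.8 TPM.

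The differences in the Ccnd3 share were 17.5 percentage points for KO MK minus WT MK (SD 15.0), 35.8 for KO NMK minus WT NMK (SD 23.5; 44.7, SD 16.8, without the 2 low libraries), 23.6 for WT MK minus WT NMK (SD 11.01) and 5.24 for KO MK minus KO NMK (SD 26.3; -3.67, SD 19.6, without the 2 low libraries). Without KO MK B1-4 and 2 the first was 26.5 (SD 12.3), with 2 of 3 KO MK cells above every WT MK cell. Among cells without a title prefix the first was 14.7 and the second 40.9, and among cells with the prefix B1 the first was 7.65, while the table holds no WT NMK cell with that prefix. With the 5 similar WT MK libraries taken as 1, the first was 9.91. Whether the difference between KO and WT cells itself differs between MK and NMK cells was not tested.

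The share of Ccnd2 was 29.5% ± 11.2 in KO MK against 50.7% ± 8.70 in WT MK cells and 22.6% ± 13.9 in KO NMK (21.9% ± 15.02 without the low libraries) against 51.0% ± 9.69 in WT NMK cells. Of 5 KO MK cells 4 lay below every WT MK cell, and of 13 KO NMK cells 10 lay below every WT NMK cell but 1A. WT NMK 1A, left out for its cyclin sum of 3.8 TPM, had 0.2 TPM of Ccnd2. Ccnd1 made up 16.3% ± 8.30 in KO MK, 12.6% ± 5.11 in WT MK, 28.4% ± 24.4 in KO NMK and 35.8% ± 17.0 in WT NMK cells. The KO NMK mean rests on the low libraries B1-1b and B1-2a, with 76.3% and 70.3%, and was 20.2% ± 15.3 without them, so that KO NMK minus WT NMK was -7.37 percentage points (SD 21.9) with all cells and -15.5 (SD 15.999) without. For WT MK minus WT NMK the Ccnd1 share was lower by 23.2 percentage points (SD 13.4), while the difference in the Ccnd2 share was -0.37 (SD 9.29). Ccnd3 was the highest of the 3 cyclins in 4 of 5 KO MK, 2 of 6 WT MK, 9 of 11 KO NMK and 0 of 8 WT NMK cells. The low libraries were left out here, as was WT NMK 1A, in which Ccnd3 was the highest at 3.6 TPM. Ccnd2 was the highest in 1 KO MK, 4 WT MK, 2 KO NMK and 6 WT NMK cells, and Ccnd1 in 2 WT NMK cells.

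The summed TPM of the 3 cyclins was 167.7 ± 88.2 in KO MK, 106.7 ± 15.6 in WT MK, 99.7 ± 48.3 in KO NMK and 118.3 ± 109.4 TPM in WT NMK cells. KO MK minus WT MK was 61.03 TPM with an SD of 59.96, and 104.4 TPM with an SD of 50.3 without KO MK B1-4 and 2, when all 3 remaining cells lay above every WT MK cell. KO NMK minus WT NMK was -18.6 TPM with an SD of 78.7, and -6.69 TPM with an SD of 79.4 without the low libraries.

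**Figure D3:**
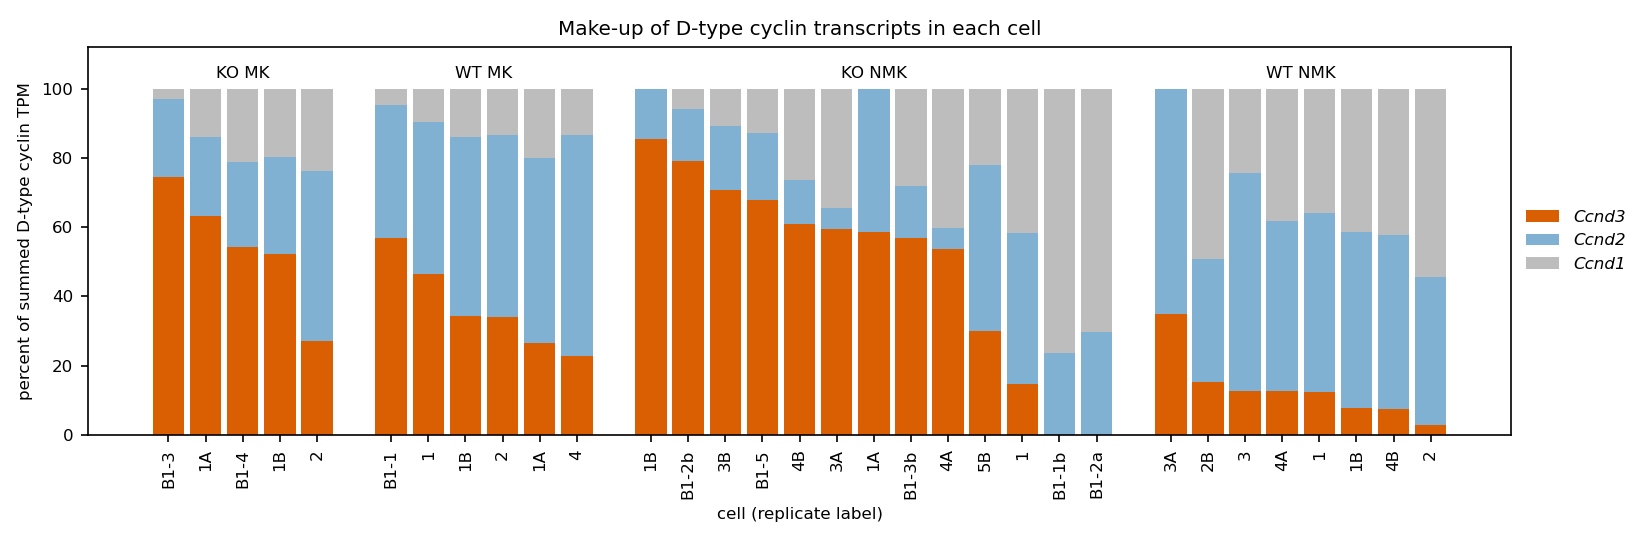
Percent of the summed D-type cyclin TPM (y axis) given by Ccnd3, Ccnd2 and Ccnd1 in each cell (bars, named by replicate), sorted by the Ccnd3 share within each group. The Ccnd3 share is 27.1 to 74.5% in KO MK, 22.7 to 56.8% in WT MK, 0 to 85.5% in KO NMK, where the cells at 0 are the 2 low libraries B1-1b and B1-2a, and 2.76 to 34.9% in WT NMK cells. WT NMK 1A, with a cyclin sum of 3.8 TPM, is not shown.

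Of the kinases, Cdk6 was lower in KO MK than in WT MK cells, and the difference in Cdk4 had the same sign and was smaller. Cdk6, the kinase that blood cells depend on most, was at 3.9, 12.4, 14.1, 12.6 and 24.5 TPM in KO MK 1A, 1B, 2, B1-3 and B1-4, against 24.4, 27.5 and 40.1 TPM as lowest, median and highest in WT MK cells. KO MK B1-4 lay just within the WT range and the other 4 lay below it. The difference was -1.23 (SD 0.61), and without KO MK B1-4 and 2 it was -1.64 with no overlap. Among cells without a title prefix it was -1.56 and among B1 cells -0.87. With all libraries of the full table it was -0.42, and -1.43 when those with a housekeeping score under 6 were left out. KO MK B1-1, with 3.2 TPM of Cdk6 and 71.5% of its TPM on mitochondrial genes, stayed in at that limit. In NMK cells Cdk6 spread widely, from 0 to 144.0 TPM in KO with a median of 24.7 and from 0 to 40.3 TPM in WT with a median of 11.3, a difference of 0.86 (SD 2.16), or 0.71 (SD 2.25) without the low libraries. WT MK minus WT NMK was 1.64 (SD 1.59), and KO MK minus KO NMK was -0.44 (SD 1.99), or -0.29 (SD 2.09) without the low libraries.

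Cdk4 was at 136.5, 149.6, 246.5, 213.2 and 288.3 TPM in KO MK 1A, 1B, 2, B1-3 and B1-4, against 252.1, 289.9 and 328.4 TPM as lowest, median and highest in WT MK cells. Here too B1-4 alone lay within the WT range, and the difference of -0.54 was larger than the SD of 0.33 but under the size counted as lower. It was -0.82 without KO MK B1-4 and 2, again with no overlap, and among B1 cells it was -0.02. Tspan31, which overlaps Cdk4, went the other way, with 325.0 TPM in KO MK and 208.9 TPM in WT MK cells, and r between them within groups was 0.08.

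In KO NMK cells Cdk4 was at 0, 423.7 and 687.5 TPM as lowest, median and highest, against 172.8, 263.3 and 409.3 TPM in WT NMK cells. Of 13 KO NMK cells 7 lay above every WT NMK cell and 3 below, of which 2 were the low libraries. So the difference was -0.43 (SD 2.23) with all cells and 0.69 (SD 0.58) without the low libraries. WT MK minus WT NMK was 0.16 (SD 0.32). KO MK minus KO NMK was 0.04 (SD 2.49), and -1.08 (SD 0.63) without the low libraries.

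Cdk6 made up 5.85% ± 2.05 of the summed kinase TPM in KO MK and 9.23% ± 1.78 in WT MK cells, a difference of -3.38 percentage points (SD 1.905), with 3 of 5 KO MK cells below every WT MK cell. In every group Cdk4 was thus far more abundant than Cdk6, and the exceptions were KO NMK B1-1b and B1-2a, where Cdk6 made up 76.6% and 100% of a sum of 27.4 and 42.8 TPM.

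Among the inhibitors, Cdkn2d and Cdkn1a were the abundant ones, and Cdkn1b and Cdkn1c were scarce in most cells. Cdkn2c was higher in KO NMK than in WT NMK cells with wide overlap. Cdkn2c was listed at 0 in 7 of 9 WT NMK cells, and the other 2, 1 and 1A, had 13.9 and 101.9 TPM. In KO NMK cells it reached 1 TPM in 9 of 13 (69.2%, exact 95% interval 38.6 to 90.9%), against 2 of 9 WT NMK cells (22.2%, 2.81 to 60.01%), intervals that cover counting error only and overlap. The lowest, median and highest values were 0, 48.6 and 190.6 TPM in KO NMK and 0, 0 and 101.9 TPM in WT NMK cells. The difference was 3.07 (SD 2.88), and 3.84 (SD 2.61) without the low libraries.

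In MK cells Cdkn2c was present throughout, at 9.3, 8.9, 18.8, 37.3 and 20.5 TPM in KO MK 1A, 1B, 2, B1-3 and B1-4, against 4.4, 11.8 and 19.0 TPM as lowest, median and highest in WT MK cells, a difference of 0.64 (SD 0.76). WT MK minus WT NMK was 2.32 (SD 1.96) on the mean of logs, and the ratio of mean TPM gave -0.17, as WT NMK 1A alone carried most of the WT NMK sum.

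Cdkn2d was at 267.4, 237.2, 20.8, 342.0 and 69.8 TPM in KO MK 1A, 1B, 2, B1-3 and B1-4, against 85.8, 116.5 and 176.4 TPM in WT MK cells. The KO MK cells thus lay on both sides of the WT range: 3 lay above it, and the 2 with few platelet transcripts lay below it. The difference over all 5 was 0.12 (SD 1.15). Without B1-4 and 2 the KO MK cells averaged 282.2 TPM ± 53.9 (SD, n = 3), against 120.4 TPM ± 34.2 in WT MK cells (SD, n = 6). In KO NMK cells the lowest, median and highest values were 0, 157.0 and 242.8 TPM, against 0.2, 45.2 and 149.1 TPM in WT NMK cells, and 7 of 13 KO NMK cells lay above every WT NMK cell. The difference was 1.02 (SD 2.55), and 2.10 (SD 1.6) without the low libraries. WT MK minus WT NMK was 1.94 (SD 1.74), but -0.58 when all libraries of the full table were used. KO MK minus KO NMK was 1.04 (SD 2.53), and -0.04 without the low libraries.

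Cdkn1a spread widely from cell to cell. It was at 4.1, 62.4, 433.6, 186.7 and 806.3 TPM in KO MK 1A, 1B, 2, B1-3 and B1-4, against 13.9, 117.6 and 844.2 TPM as lowest, median and highest in WT MK cells, and the difference was -0.21 (SD 2.40). The 2 KO MK cells with the most Cdkn1a were those with few platelet transcripts, and without them the difference was -1.78. In NMK cells it was at 0, 56.1 and 423.5 TPM in KO and at 0, 43.3 and 297.4 TPM in WT, a difference of 1.18 (SD 3.13) that was 2.20 (SD 2.59) without the low libraries. Every one of the other 11 KO NMK cells had 21.8 TPM or more, while 3 of 9 WT NMK cells had 0.1 TPM or less. WT MK minus WT NMK was 2.62 (SD 2.98). KO MK minus KO NMK was 1.23 (SD 2.87), 0.21 without the low libraries and -0.90 among cells without a title prefix.

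Cdkn1b was at 0.1, 0, 0, 1.8 and 0 TPM in KO MK 1A, 1B, 2, B1-3 and B1-4, against 0.1, 2.55 and 13.2 TPM as lowest, median and highest in WT MK cells. The difference was -1.54 (SD 1.12), and it was 0.05 with all libraries of the full table. It reached 1 TPM in 1 of 5 KO MK (20%, exact 95% interval 0.505 to 71.6%), 4 of 6 WT MK (66.7%, 22.3 to 95.7%), 4 of 13 KO NMK (30.8%, 9.09 to 61.4%) and 3 of 9 WT NMK cells (33.3%, 7.49 to 70.1%). The intervals overlap, and at such levels this number of cells cannot show a difference in detection. In NMK cells the lowest, median and highest values were 0, 0.2 and 16.2 TPM in KO and 0, 0 and 76.6 TPM in WT, the last in WT NMK 1A. KO NMK minus WT NMK was -0.63 (SD 1.82), or -0.68 (SD 1.87) without the low libraries.

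Cdkn1c, known for keeping stem cells quiescent, was nearly absent from the tables: 1 TPM or more was seen in 1 of 5 KO MK, 0 of 6 WT MK (exact 95% interval 0 to 45.9%), 1 of 13 KO NMK and 1 of 9 WT NMK cells. The cells were KO MK 1B with 1.0, KO NMK B1-2b with 20.1 and WT NMK 3A with 10.6 TPM.

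**Figure D4:**
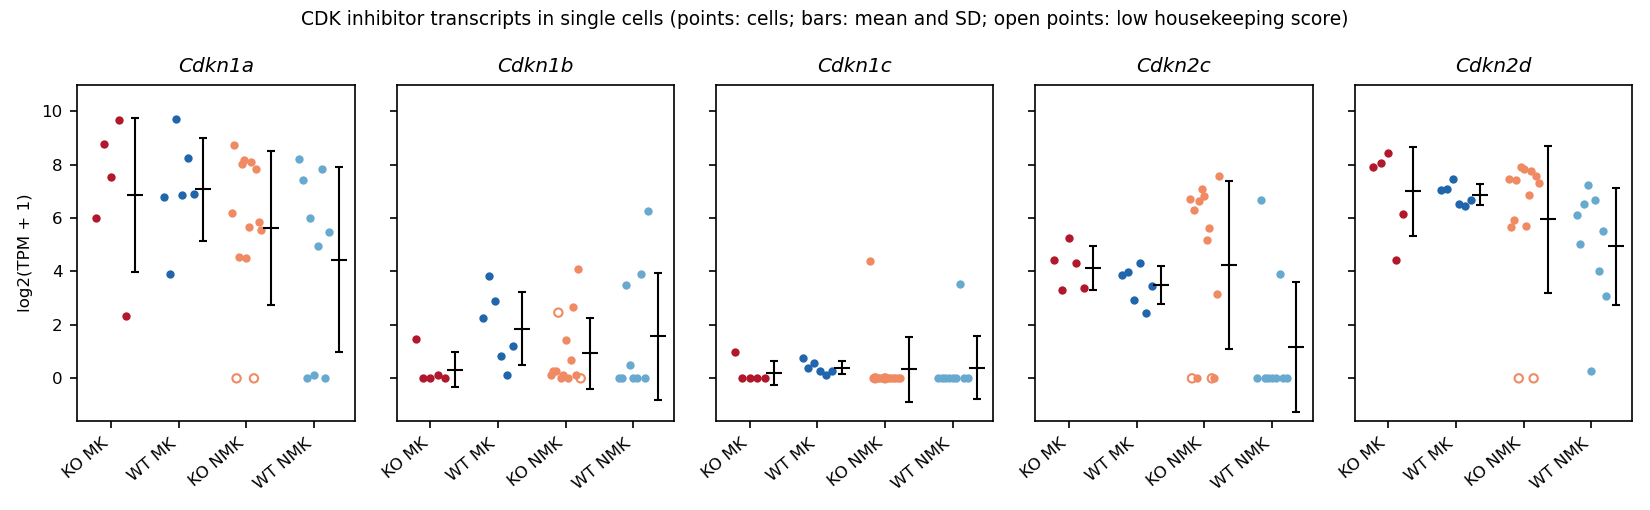
Level of the 5 CDK inhibitors as log2(TPM + 1) (y axis) in each cell of the 4 groups (x axis). Points are cells, open points the 2 KO NMK libraries of low housekeeping score, and black bars the mean and SD; Cdkn2c lies at 0 in 7 of 9 WT NMK cells and reaches 190.6 TPM in KO NMK cells.

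The 5 inhibitors together came to 505.6 TPM ± 248.4 in KO MK, 387.6 ± 325.7 in WT MK, 327.3 ± 209.5 in KO NMK (386.3 ± 166.4 without the low libraries) and 174.3 ± 108.9 TPM in WT NMK cells. KO NMK minus WT NMK was 152.9 TPM (SD 176.3), and 212.03 TPM (SD 143.7) without the low libraries. KO MK minus WT MK was 118.02 TPM (SD 293.9), and -1.52 TPM (SD 287.96) without KO MK B1-4 and 2. The log2 ratio of inhibitor to cyclin sums was 1.6 ± 1.18 in KO MK against 1.52 ± 1.17 in WT MK cells, and 1.77 ± 0.69 in KO NMK (n = 11) against 0.32 ± 1.35 in WT NMK cells (n = 8). The difference of 1.46 in NMK cells was larger than the SD of 1.02, with 6 of 11 KO NMK cells above each of those 8 WT NMK cells. It rests on cells with both sums at 10 TPM or more. WT NMK 1A, left out, had 223.7 TPM of inhibitors and 3.8 TPM of cyclins, a ratio above that of all 11 KO NMK cells. KO NMK B1-1b and B1-2a, also left out, had 4.5 and 0 TPM of inhibitors against 22.8 and 45.8 TPM of cyclins. Each exclusion widened the difference in NMK cells. In MK cells it was 0.08 (SD 1.18), and -0.64 (SD 1.10) without KO MK B1-4 and 2, whose removal took the KO MK mean to 0.88.

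Other INK4 genes were seen in few cells. Cdkn2a, which encodes p16 and p19ARF, reached 1 TPM in 1 of 5 KO MK, 0 of 6 WT MK, 1 of 13 KO NMK and 0 of 9 WT NMK cells. Cdkn2b, which encodes p15, did so in 2 of 5 KO MK, 2 of 6 WT MK, 0 of 13 KO NMK and 0 of 9 WT NMK cells. Cdkn2b averaged 3.08 TPM ± 4.22 in KO MK and 6.45 TPM ± 13.8 in WT MK cells, where 1 cell had 34.5 TPM, and the difference of WT MK minus WT NMK was 1.40 (SD 1.22).

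Within groups, the 8 genes with 1 TPM or more in 50% of cells showed which of them varied together, over 31 cells with the group mean removed and the 2 low libraries left out. All cells share the fixed TPM total, so these are descriptions. Ccnd1 and Ccnd2 gave r = 0.53, Cdkn1a and Ccnd2 0.50 and Cdkn1a and Ccnd1 0.47, while Cdkn2c and Ccnd2 gave -0.41 and Cdkn1a and Cdkn2d -0.41. Cdkn1a tracked a score of 16 other p53 response genes, with r = 0.81 and rho = 0.80, and r = 0.79 without WT NMK 1 and WT MK B1-1. Ccnd1 ran against the score of 19 mitosis genes, with r = -0.61 and rho = -0.59, and r = -0.54 without WT NMK 2 and KO NMK 4A. Of the 7713 genes ranked, those most like each of the 8 were R74862, Cd81 and Phlda3 for Cdkn1a (r = 0.81 to 0.82), Oraov1 and Tie1 for Ccnd1 (0.79 to 0.87), and 1810022K09Rik, Hsd17b10 and Cacybp for Ccnd2 (0.81 to 0.84). They were Gsr, Bysl and Wbp2 for Ccnd3 (0.78 to 0.83), Ptcd3, Shmt2 and Eef2k for Cdk4 (0.77 to 0.78) and Ech1, Chchd4 and Prkar2a for Cdk6 (0.70 to 0.73). For Cdkn2c they were Leprotl1, Uqcc3 and Tpx2 (0.72 to 0.74), and for Cdkn2d Gnb2, Cpne1 and Ppp1r35 (0.68 to 0.73).

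Downstream of the 10 genes lie the E2F factors and their targets, whose lists were counted in the same way. In KO NMK against WT NMK cells, 8 of 20 E2F target genes of S phase were higher and 1 was lower (median 0.83), and 14 were higher and 1 lower without the low libraries (median 1.58), among them Rrm1, a subunit of ribonucleotide reductase, with 482.7 TPM in KO NMK and 84.6 TPM in WT NMK cells (2.86, SD 1.84). Mitosis genes were higher in 15 of 19 with all cells and in 19 of 19 without the low libraries (medians 1.91 and 2.85), such as Birc5, which encodes survivin, at 294.9 TPM in KO NMK and 113.4 TPM in WT NMK cells (4.53, SD 2.85). The share of all genes counted as higher was 12.8% with all cells and 24.1% without those libraries. The mitosis score of WT NMK cells ran from 0.41 to 5.76 and that of the 11 KO NMK cells from 2.11 to 7.25. Signs of library quality moved with this comparison: the housekeeping score averaged 9.87 ± 0.28 in the 11 KO NMK and 8.93 ± 0.29 in the 9 WT NMK cells, 6 of its 14 genes were higher and 0 lower without the low libraries (median 0.75; 1 and 3 with all cells), and mitochondrial genes took 6.64% ± 0.86 of the TPM in those KO NMK and 8.43% ± 1.19 in WT NMK cells. Their part in the differences was not tested.

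Between the 10 genes and these targets lie other lists, compared here between KO NMK and WT NMK cells. Without the low libraries 6 of 9 E2F and DP factors and 5 of 5 late G1 cyclin and CDK2 genes were counted as higher. So were 3 of 3 pocket protein genes, where 24.1% of all genes were. With all cells these counts were 7, 4 and 2, where 12.8% of all genes were higher. E2f4, an E2F that acts with pocket proteins as a repressor, averaged 173.8 TPM in KO NMK and 18.3 TPM in WT NMK cells (3.37, SD 1.59). Ccne1, the cyclin E that follows D-type cyclins in G1, averaged 115.6 TPM in KO NMK and 11.7 TPM in WT NMK cells (3.41, SD 3.12). Rb1, the retinoblastoma gene, averaged 12.7 TPM in KO NMK and 1.39 TPM in WT NMK cells (1.75, SD 2.01).

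In KO MK against WT MK cells, of 20 E2F target genes 6 were lower and none was higher (median -0.56), where 9.27% of all genes were lower and 12.4% higher, among them Rfc4, of the clamp loader, at 223.1 TPM in KO MK and 476.4 TPM in WT MK cells (-1.12, SD 0.58). Of 5 late G1 genes 2 were lower, Ccne1 (-3.29, SD 2.45) and Ccne2 (-2.08, SD 1.75). Of 10 E2F and DP factors 2 were lower, one of them E2f8 (-1.40, SD 1.21), and of 3 pocket protein genes Rb1 was higher, at 28.9 TPM in KO MK and 10.5 TPM in WT MK cells (1.44, SD 0.78). Of 19 mitosis genes 2 were higher and 1 lower. In WT MK against WT NMK cells 10 of 20 E2F target, 16 of 19 mitosis and 4 of 5 late G1 genes were higher, where 37.4% of all genes were. In KO MK against KO NMK cells, without the low libraries, 12 of 20 E2F target genes were lower and 1 was higher (median -1.49), where 6.97% of all genes were lower, for example Tk1, thymidine kinase, at 16.3 TPM in KO MK and 141.5 TPM in KO NMK cells (-2.996, SD 0.96).

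Of 16 p53 response genes other than Cdkn1a, 0 were higher and 3 lower in KO NMK against WT NMK cells (1 and 3 without the low libraries). Of all genes 12.8% were higher and 13.3% lower there (24.1% and 7.62% without those libraries). Fas was listed at 0 in every KO NMK cell and averaged 25.7 TPM in WT NMK cells. Between KO MK and WT MK cells 2 p53 response genes were higher and 3 lower, where 12.4% of all genes were higher and 9.27% lower. Btg2 was at 46.4 TPM in KO MK and 100.95 TPM in WT MK cells (-2.69, SD 2.39). The same list had 8 of 16 higher and 1 lower in WT MK against WT NMK cells, where 37.4% and 5.22% of all genes were, and 10 of 16 higher and 1 lower in KO MK against KO NMK cells, where 34.2% and 3.84% were (9 and 1 without the low libraries, where 26% and 6.97% were). Of 13 genes that carry growth signals to D-type cyclins, 1 was higher and 2 were lower in KO MK against WT MK cells, and among the lower was Pim2, a kinase downstream of cytokine receptors, at 78.4 TPM in KO MK and 195.1 TPM in WT MK cells (-1.66, SD 1.29). In KO NMK against WT NMK cells 6 were higher and 1 lower, with Akt1 at 42.5 TPM in KO NMK and 6.91 TPM in WT NMK cells (2.32, SD 2.02). FOXO and quiescence regulators gave 1 higher and 0 lower of 7 compared in KO MK against WT MK cells and 0 higher and 1 lower of 8 in KO NMK against WT NMK cells (2 and 0 of 7 without the low libraries). Of 9 genes for turnover of inhibitors and cyclins, 2 were higher and 0 lower in KO NMK against WT NMK cells (4 and 0 without the low libraries), and of the 8 compared in KO MK against WT MK cells none was counted. The CDK-activating kinase and its chaperone gave 0 higher and 1 lower of 4 in KO NMK against WT NMK (2 and 1 without the low libraries) and none of 4 in KO MK against WT MK cells.

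**Figure D5:**
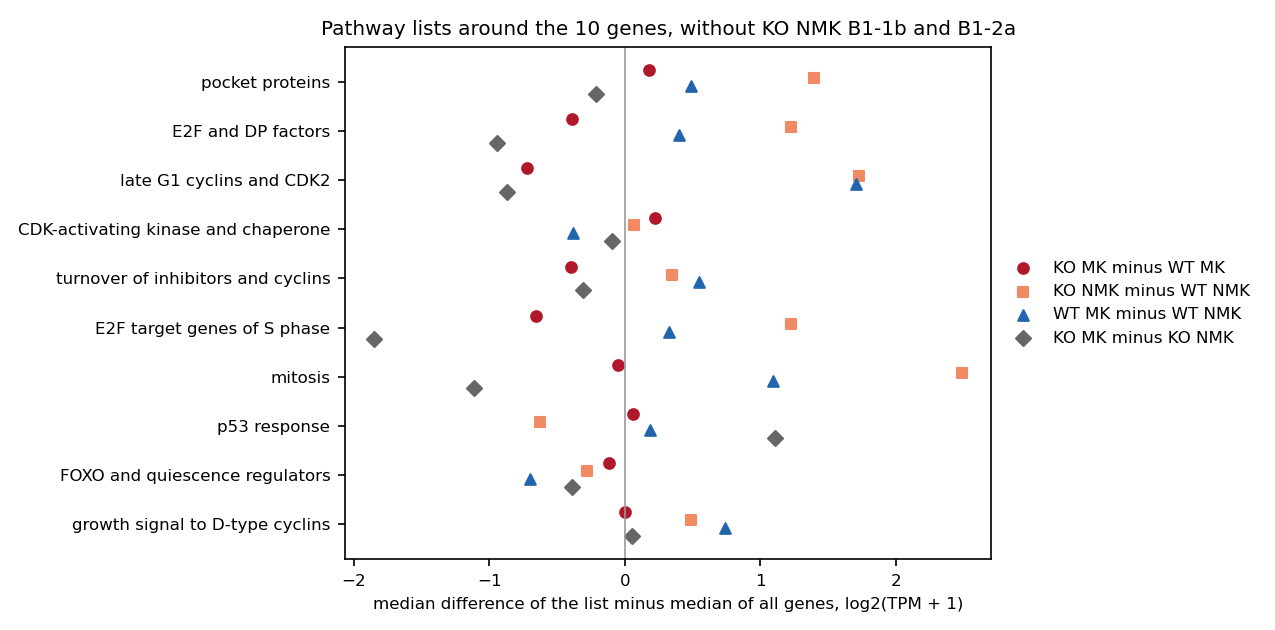
Median difference of each pathway list minus the median of all genes, on the log2(TPM + 1) scale (x axis), for 10 lists (rows) and the 4 comparisons (symbols), with KO NMK B1-1b and B1-2a left out. For KO NMK minus WT NMK the mitosis list lies farthest right, with a median of 2.85 before the shift of 0.36 is taken off, and for KO MK minus KO NMK the E2F target list lies farthest left, with a median of -1.49.

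Markers of cell types were summed in each cell, and the ranges below run from the lowest to the highest cell. Medians of the megakaryocyte-platelet sum were 20929 and 16773 TPM in KO MK and WT MK cells. In KO NMK cells without the low libraries and in WT NMK cells they were 368.1 and 298.5 TPM. Medians of the lymphoid sum lay close together, at 26.1, 28.6, 24.2 and 28.2 TPM in the same order of groups. The 20 megakaryocyte-platelet genes summed to 414.8 to 58488 TPM in KO MK cells, 13523 to 22306 TPM in WT MK cells, 71.5 to 894.7 TPM in KO NMK cells and 66.1 to 1700 TPM in WT NMK cells. For 16 stem cell genes the ranges were 760.6 to 1801 in KO MK, 276.1 to 589.2 in WT MK, 8.4 to 1750 in KO NMK and 191.4 to 1611 TPM in WT NMK cells. Of these genes 8 of 14 compared were higher and 1 was lower in KO MK than in WT MK cells, where 12.4% of all genes were higher and 9.27% lower. The count without KO MK B1-4 and 2 is not given here. Ly6a, on this list, was at 199.0 and 342.2 TPM in those cells and at 0.1 TPM or less in the other KO MK cells. For 12 granulocyte-monocyte genes the ranges were 274.2 to 2205 in KO MK and 164.4 to 348.0 TPM in WT MK cells. They were 2.9 to 1331 in KO NMK and 9.0 to 1569 TPM in WT NMK cells, with S100a8 listed at 0 in every cell. For 12 erythroid genes they were 5.4 to 1998 in KO MK, 172.1 to 419.0 in WT MK, 0 to 3099 in KO NMK and 0 to 1042 TPM in WT NMK cells. For 10 lymphoid genes they were 0 to 1213 in KO MK, 20.4 to 40.2 in WT MK, 0 to 103.5 in KO NMK and 0 to 303.4 TPM in WT NMK cells. Pax5, Il7r and Ebf1, which define B and lymphoid progenitors, were listed at 0 in every cell, so these sums came from other genes of the list. In each group 2 of the 10 averaged 1 TPM or more, the low libraries left out. The sums of 8 mast cell and basophil genes reached 136.2 TPM and those of 10 stromal and endothelial genes 208.0 TPM at most, both in KO NMK cells. The part these cell states have in the differences of the 10 genes was not tested.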

How the data were processed

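Single-cell SMART-Seq libraries were labelled by genotype and appearance. Per the submitters' processing notes, the authors' tools included STAR 2.6.1e, featureCounts 1.6.2, cutadapt 1.9.1 and FastQC 0.11.7, with the mm10 build. The deposited values are TPM with 1 decimal that sum to about 1000000 per library; the sources used here do not give the step from reads to TPM, the strand setting or the rule for leaving out libraries, and the depth is unknown. Of 90 labelled samples, 46 had a column in the full table and 44 were not analysed here. The authors' table without outliers held 33 of these and was used throughout, and 1 column that matches no sample was not used.

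Means of log2(TPM + 1) were compared over cells, without a test. The pseudocount was 1 TPM, the minimum mean 1 TPM in 1 of the 2 groups, and the difference counted 1. Shares within a cell needed a denominator of 10 TPM. Intervals for shares of cells are exact Clopper-Pearson intervals at 95%. A housekeeping score under 6 (14 genes) marked low libraries. Likeness is Pearson's r of log2(TPM + 1) with group means removed, over genes with 1 TPM in 50% of 31 cells.

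The 10 genes, the 22 gene lists and the comparisons were chosen with earlier results of these data known. Genes are named as members, as the 3 largest differences by list, and as the 3 most alike genes, of which 1 is not reported here. Coding sequences were aligned with mafft 7.526, and promoters came from RefSeq. Calculations used scipy 1.17.1, numpy 2.4.6, matplotlib 3.10.9 and pandas 2.3.3 in Python 3.11.15, and were checked on simulated data. Alternatives were other pseudocounts and filters, the full table, title prefixes and leaving out each cell. Leaving out KO MK B1-4 and 2 was chosen after seeing the data.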

Additional observations from a re-analysis of the deposited data

Results flagged for a closer look

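In groups of 4 to 10 cells, 8 of 54 sets of values held a cell whose gap to the nearest other cell was large for the range of its group. Chance alone gives about 1 in 20 where values are normally distributed. These values hold many zeros, and sums and shares reuse the same genes, so 8 of 54 cannot be set against that rate. A lone cell above 0 among zeros, as for Cdkn1c, is always flagged. None of these values was tested further.

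For single genes on the log2(TPM + 1) scale, Cdkn1b in KO MK B1-3 was 1.49, with the next cell at 0.14. Cdkn1c in KO MK 1B was 1.0 and in WT NMK 3A was 3.54, with the next cell of each group at 0. Ccnd2 in WT NMK 1A was 0.26, with the next lowest cell at 4.54, and this cell, with 3.6 TPM of Ccnd3, also had the least Ccnd3 of its group.

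For sums and shares, the cyclin sum of WT NMK 2 was 383.8 TPM, with the next at 160.0 TPM, and Ccnd1 alone gave 208.6 TPM of it. The inhibitor sum of WT MK B1-1 was 1012 TPM, with the next at 448.7 TPM, and Cdkn1a gave 844.2 TPM of it. Ccnd2 made up 49.2% of the D-type cyclins in KO MK 2, with the next at 28.2%, and this is one of the KO MK cells with few platelet transcripts. Ccnd3 made up 34.9% in WT NMK 3A, with the next at 15.3% once WT NMK 1A was left out for its low cyclin sum. Ccnd1 was listed at 0 in WT NMK 3A.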

How the results depend on the processing

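No paired analysis was possible, since no label names an animal or culture, and each group counts as 1 sample. What the numbers and letters in the titles stand for is not given, so cells could not be paired by them. Counts of the 10 genes were 3 for KO MK against WT MK, 0 with a pseudocount of 10 and 5 without KO MK B1-4 and 2; leaving out each cell gave 2 to 3. For KO NMK against WT NMK they were 5, 3 with the full table, a pseudocount of 0.1 or the median gene taken off, and 2 with a pseudocount of 10; leaving out each cell gave 3 to 5, with 3 without WT NMK 1 or KO NMK 1, 1B, 4A, 5B or B1-3b. For WT MK against WT NMK they were 5, 2 with the full table and 3 with a pseudocount of 10; leaving out each cell gave 5 to 6. For KO MK against KO NMK they were 4, 2 without KO NMK B1-1b and B1-2a, with the full table without low scores, or with the median gene taken off, 8 among B1 cells and 0 with a pseudocount of 10; leaving out each cell gave 1 to 4, with 1 without KO NMK B1-1b or B1-2a. Of all genes 21.7%, 26.1%, 42.6% and 38% were counted in the 4 comparisons, in this order. The share was 25.7% in the first without KO MK B1-4 and 2, and 32.9% in the last without the low libraries. Shares under the other alternatives are not given here, so those counts cannot be set against all genes. The 8 among B1 cells compares 2 KO MK cells, B1-3 and B1-4, with 5 KO NMK cells, B1-1b and B1-2a among them. The causes were not tested.

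Signs of differences that had been counted, and of list medians, turned as follows; smaller differences also changed sign, such as KO MK minus WT MK for Cdkn1a (0.99) and Ccnd2 (0.32) with the full table and for Cdkn2c (-0.38) and Cdkn2d (-0.17) with that table without low scores. With the full table, KO MK minus WT MK was 0.053 for Cdkn1b, and WT MK minus WT NMK was -0.58 for Cdkn2d, -0.12 for Ccnd3, and in the median -0.10 for the turnover list and -0.55 for the E2F target list. With the ratio of mean TPM, Cdkn2c was -0.17 for WT MK minus WT NMK. For KO MK minus KO NMK, Cdkn1a was -0.075 with the full table without low scores, -0.90 among cells without a prefix and -1.36 without KO MK B1-4 and 2 and the low libraries. There Cdkn2d was -0.043 without the low libraries and -0.18 with the full table without low scores, and Ccnd3 was -0.15 with that table. Without KO MK B1-4 and 2, list medians were -1.25 (granulocyte-monocyte, KO MK minus WT MK), -0.57 (the same list, KO MK minus KO NMK) and -0.045 (lymphoid, KO MK minus KO NMK), and with medians over cells the first was -0.0041. The Ccnd3 share moved by less than its SD under the alternatives run, and leaving out each cell gave 12.4 to 24.2 (KO MK minus WT MK), 32.7 to 39.9 (KO NMK minus WT NMK), 19.6 to 26.7 (WT MK minus WT NMK) and 0.177 to 12.02 percentage points (KO MK minus KO NMK). KO MK minus KO NMK, within its SD of 0, was negative in 4 alternatives: -3.67 without the low libraries, -1.61 with the full table, -1.95 with that table without low scores and -6.70 among cells without a prefix. Of 1140 values of single genes 1105 moved by less than 1 SD, 25 by more, and 10 that had been counted changed sign. The SD is that between cells and often wide, and many alternatives left out only 1 cell, so this count cannot show that differences are firm. Cdkn1a in KO MK minus WT MK was -0.21, 0.99 with the full table and -1.78 without KO MK B1-4 and 2. Both moves were smaller than its SD of 2.40. Unknown depth limits what a value of 0 shows.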
